A study of Homo sapiens with 9 samples.

Results

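The large histone gene cluster of human chromosome 6 was examined for streptavidin ChIP-seq peaks of 2 zinc finger proteins, zfp148 and zfp281, in K562 cells. K562 is a human erythroleukaemia line, and hemin drives it towards erythroid maturation. The cluster was taken as 3 windows of the hg19 genome set for HIST1 genes, chr6:26015000-26290000 (window 1), chr6:27090000-27150000 (window 2) and chr6:27770000-27870000 (window 3). No hg19 annotation was used, so whether every HIST1 gene lies inside a window was not checked. Every peak that overlapped a window by at least 1 bp was a member. There were 323 members among the 316415 peaks of 9 deposited lists, and the remainder of the 4 Mb between chr6:25000000 and chr6:29000000, here called the flank, held 1171 peaks. The windows span 435 kb, which is 10.9% of that stretch, and the flank spans 3565 kb. Few peaks sat at the window edges: 1 member of BirA replicate 1 and 1 of the pooled BirA list had its summit outside, and 1 to 5 flank peaks per list lay within 10 kb of a window.

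The bio-zfp148 and bio-zfp281 cells were selected clones that carried zfp148 (ZBP-89) or zfp281 (ZBP-99) with 23 added amino-terminal residues that BirA, a bacterial biotin ligase, biotinylates. Per the series' design text, the clones made their tagged protein near the level of the endogenous one, and the number of clones is not given in the sources used here. The control was the parental line with BirA and no tagged protein. All 3 groups carried BirA and had hemin for 48 h, at 50 mM as the labels state it. Each group had 2 ChIP libraries and 1 input library, and the labels do not tie replicates to separate cultures. The p-values then measure only the spread between these libraries, which may be technical. The authors called peaks in each library and again in both replicates of a group pooled, each against an input. Peak lists hold no expression values, so K562 markers were not examined here.

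Histone genes of the replication-dependent class are switched on together as cells enter S phase. Their short, intronless messages end in a stem-loop in place of a poly(A) tail, and the cluster is the core of a nuclear compartment, the histone locus body, organised around NPAT. H2A, H2B, H3 and H4 form the octamer that DNA wraps around, and H1 histones bind the linker DNA between octamers. zfp148 and zfp281 are related Krüppel-type factors known to bind G-rich, GC-rich DNA, and zfp148 has been studied at globin genes.

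RefSeq lists 55 protein-coding HIST1 genes and 11 pseudogenes on chromosome 6 of GRCh38.p14, with 6 H1, 12 H2A, 15 H2B, 10 H3 and 12 H4 genes. These were not limited to the windows. The cluster was built by duplication, and genes of a family resemble each other. Of the 55 genes, 50 matched the RefSeq promoter table, with 54 promoters in all. The 250 bases before the start of a gene are shown for the 4 HIST1 genes whose promoters held the G-rich core CCCTCCC on either strand, the kind of sequence these factors are known for, and for H2BC11 as an example without it. They come from RefSeq on GRCh38.p14, at chr6:26027284-26027533 on the minus strand for H4C2, chr6:27139032-27139281 on the plus strand for H4C9, chr6:27823842-27824091 on the plus strand for H4C11, chr6:27831561-27831810 on the minus strand for H4C12 and chr6:27132796-27133045 on the minus strand for H2BC11. The peaks are on hg19, so no peak was assigned to any of these promoters or to any gene. Capitals mark the core or its reverse complement in the H4 promoters and, in H2BC11, the CCAAT box, the TATA box (TATAAA) and the octamer (ATTTGCAT), each on either strand, where the first run of capitals holds 2 overlapping matches of TATAAA on opposite strands.
H4C2: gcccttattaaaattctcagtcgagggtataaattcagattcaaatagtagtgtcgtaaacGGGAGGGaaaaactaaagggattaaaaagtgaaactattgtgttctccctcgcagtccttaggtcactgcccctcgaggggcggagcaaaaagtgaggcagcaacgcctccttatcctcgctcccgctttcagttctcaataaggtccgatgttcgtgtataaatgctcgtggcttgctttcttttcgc
H4C9: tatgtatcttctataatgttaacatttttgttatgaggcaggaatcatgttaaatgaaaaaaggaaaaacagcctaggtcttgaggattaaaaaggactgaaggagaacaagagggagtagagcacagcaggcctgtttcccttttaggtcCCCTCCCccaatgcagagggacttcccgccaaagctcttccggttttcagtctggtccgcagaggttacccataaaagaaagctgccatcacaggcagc
H4C11: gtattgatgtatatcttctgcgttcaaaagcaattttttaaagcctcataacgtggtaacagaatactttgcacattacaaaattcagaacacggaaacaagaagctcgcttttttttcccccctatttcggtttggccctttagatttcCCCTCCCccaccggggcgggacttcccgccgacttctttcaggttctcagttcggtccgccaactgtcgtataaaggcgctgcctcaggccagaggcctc
H4C12: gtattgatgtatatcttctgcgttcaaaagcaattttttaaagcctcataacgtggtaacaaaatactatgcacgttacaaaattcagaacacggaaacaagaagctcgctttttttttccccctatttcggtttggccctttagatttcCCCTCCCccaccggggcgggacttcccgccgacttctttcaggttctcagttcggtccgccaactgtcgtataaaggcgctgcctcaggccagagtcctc
H2BC11: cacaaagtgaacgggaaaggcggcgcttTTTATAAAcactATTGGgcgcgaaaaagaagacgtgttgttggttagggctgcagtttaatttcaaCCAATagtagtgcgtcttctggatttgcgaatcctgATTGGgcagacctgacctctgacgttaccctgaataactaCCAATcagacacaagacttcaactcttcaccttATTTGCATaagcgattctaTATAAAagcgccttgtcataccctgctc

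The promoters held few matches to the G-rich core and many to the classic histone promoter elements. CCCTCCC, searched on both strands, was found upstream of 4 of 50 HIST1 genes (8.0%), against 24.7% of all 35116 promoters in the table. All 4 were H4 genes, of 10 H4 genes with a promoter. CCAAT was found at 43 of 50 genes (86.0%, against 32.0% of all promoters) and TATAAA at 34 of 50 (68.0%, against 10.7%). ATTTGCAT, which POU2F1 (Oct-1) is known to bind at H2B genes, was found at 22 of 50 genes (44.0%, against 1.63%). Of those, 12 were H2B genes of 15, 9 were H2A genes of 11 and 1 was an H3 gene, H3C4, which has the same 250 bases as H2AC7 in the table. H2A and H2B genes often lie head to head and share upstream sequence, so these genes are not independent of each other. The promoters of H4C11 and H4C12 were identical at 245 of 250 positions (98.0%). The next pairs, H2AC13 with H2AC14 and H4C5 with H4C8, were identical at 82.0% and 61.6% of positions. Every other pair was at 48.4% or less. Bases were compared position by position, without alignment and in 1 orientation. Copies that are shifted or lie head to head would score low, so the number of near copies was not determined. How reads that fit more than 1 copy were placed is not given in the sources used here.

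The libraries differed in depth. After duplicate removal the 4 tagged libraries and BirA replicate 2 held 810565 to 1570283 tags, while BirA replicate 1 held 15956688. In those 5 libraries only 10.5% to 16.7% of the total tags were kept, against 34.5% in BirA replicate 1. BirA replicate 1 allowed 2 tags per position, where the other single libraries allowed 1. All pooled lists allowed 2 as well, with 3654924 tags kept in bio-zfp148 and 4094023 in bio-zfp281. Pooled tag counts can thus hold duplicates that the single tagged lists dropped. No peak of BirA replicate 1 had a false discovery rate at or under 5% (its lowest was 31.58%), against 7384 of the 7819 peaks of BirA replicate 2. BirA replicate 1 stands apart from the other 5 libraries in these respects, so most results that rest on BirA cells are given for each replicate. The part of depth, or of the loss of tags to filtering, in any difference below was not tested.

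In every tagged library, peaks lay more densely in the histone windows than in the flank. In bio-zfp148 replicate 1, 21 peaks in the windows and 68 in the flank gave 48.3 and 19.1 peaks per Mb, a ratio of 2.53 (95% interval 1.47 to 4.18). In bio-zfp148 replicate 2, 33 and 75 peaks gave 75.9 and 21.0 per Mb, a ratio of 3.61 (2.32 to 5.50). Both intervals lie above 1.

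bio-zfp281 replicate 1 had the most members of the single libraries, 51 in the windows and 125 in the flank, or 117 and 35.1 per Mb, with a ratio of 3.34 (2.37 to 4.67). In bio-zfp281 replicate 2, 22 and 46 peaks gave 50.6 and 12.9 per Mb, a ratio of 3.92 (2.25 to 6.65). The authors' pooled lists had ratios of 2.32 (1.61 to 3.27; 43 and 152 peaks) for bio-zfp148 and 2.36 (1.80 to 3.08; 73 and 253 peaks) for bio-zfp281. The intervals are exact and conditional on the number of peaks in the stretch, and they cover counting error only.

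The cells without a tagged protein gave 2 different answers. BirA replicate 2 had 30 peaks in the windows and 50 in the flank, 69.0 and 14.0 per Mb, and its ratio of 4.92 (3.02 to 7.89) was the highest of the 6 libraries, with an interval that overlaps those of the 4 tagged ones. BirA replicate 1 had 23 and 203 peaks, 52.9 and 56.9 per Mb, and a ratio of 0.929 (0.575 to 1.43), with an interval that spans 1. The pooled BirA list, at 27 and 199 peaks, gave 1.11 (0.715 to 1.67).

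**Figure D1:**
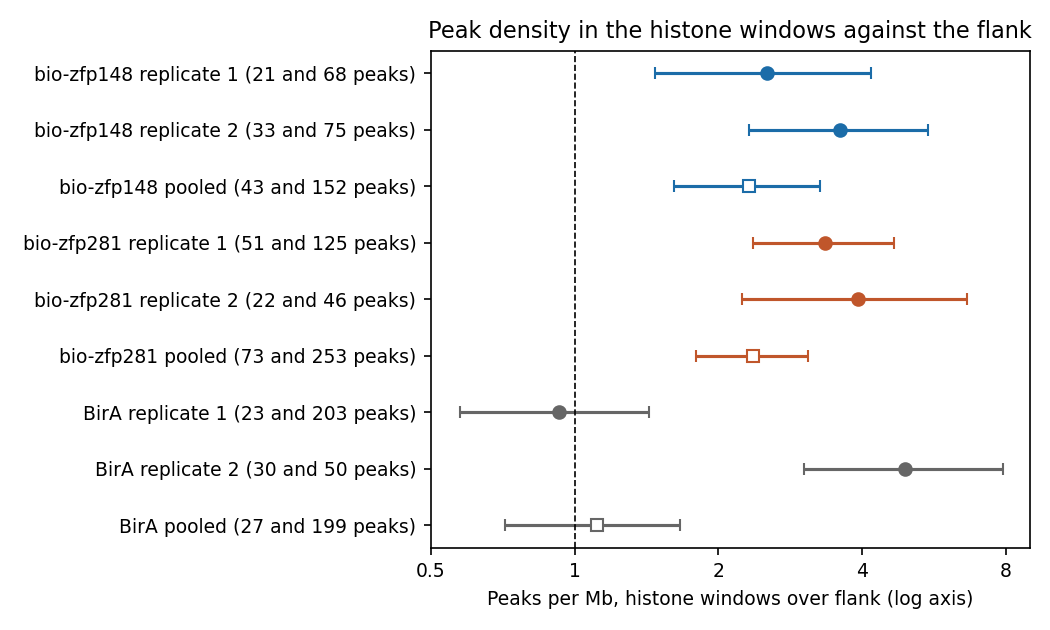
Ratio of peaks per Mb in the histone windows to peaks per Mb in the flank for each list, on a log axis, with exact 95% intervals as bars; filled circles are single libraries, open squares the authors' pooled lists, and the peak counts of windows and flank stand beside each name. The 4 tagged libraries lie between 2.53 and 3.92, below BirA replicate 2 at 4.92 and above BirA replicate 1 at 0.929.

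Tagged and untagged cells were then compared over libraries, and their ratios did not differ beyond the spread of the BirA libraries. On the log2 scale the ratio averaged 1.73 ± 0.27 in the 4 tagged libraries and 1.10 ± 1.70 in the 2 BirA libraries (SD), a difference of 0.63. An exact two-sided permutation test over the libraries gave p = 0.667, where the smallest p of this design (15 splits) is 0.133. For each protein alone, bio-zfp148 averaged 1.60 ± 0.36 and bio-zfp281 1.86 ± 0.16, which is 0.50 and 0.76 above the BirA mean (SD, n = 2 each; exact permutation p = 1 for each, smallest possible 0.333). The 2 comparisons share the BirA libraries. Without BirA replicate 1 the difference changed sign, with tagged libraries 0.57 below BirA replicate 2 on the log2 scale.

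Counting bins in place of peaks gave intervals of the ratio above 1 for each tagged library and BirA replicate 2, and 1.25 (0.834 to 1.82) for BirA replicate 1. Of the 87 bins of 5 kb in the windows, peaks touched 21.8% in bio-zfp148 replicate 1 and 33.3% in replicate 2, against 9.99% of the 711 flank bins in each. In bio-zfp281 they touched 50.6% of window bins against 15.0% of flank bins in replicate 1, and 28.7% against 6.75% in replicate 2. In BirA cells they touched 36.8% against 29.4% in replicate 1, and 33.3% against 7.03% in replicate 2.

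Ratios varied among the 3 windows, and the counts in windows 2 and 3 are small. Window 1, the longest, had ratios to the flank of 2.67 and 3.46 in replicates 1 and 2 of bio-zfp148. The 2 bio-zfp281 libraries gave 3.32 and 3.95 there, and the BirA libraries 0.894 and 5.70. In window 2 bio-zfp148 gave 4.37 and 6.34, bio-zfp281 gave 3.33 and 5.17, and BirA gave 1.17 and 4.75, on 4 to 8 peaks a library. In window 3 the ratio was 1.05 (0.124 to 3.94) on 2 peaks in bio-zfp148 replicate 1 and 2.38 on 5 peaks in replicate 2. There bio-zfp281 gave 3.42 and 3.10, and BirA gave 0.878 and 2.85.

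**Figure D2:**
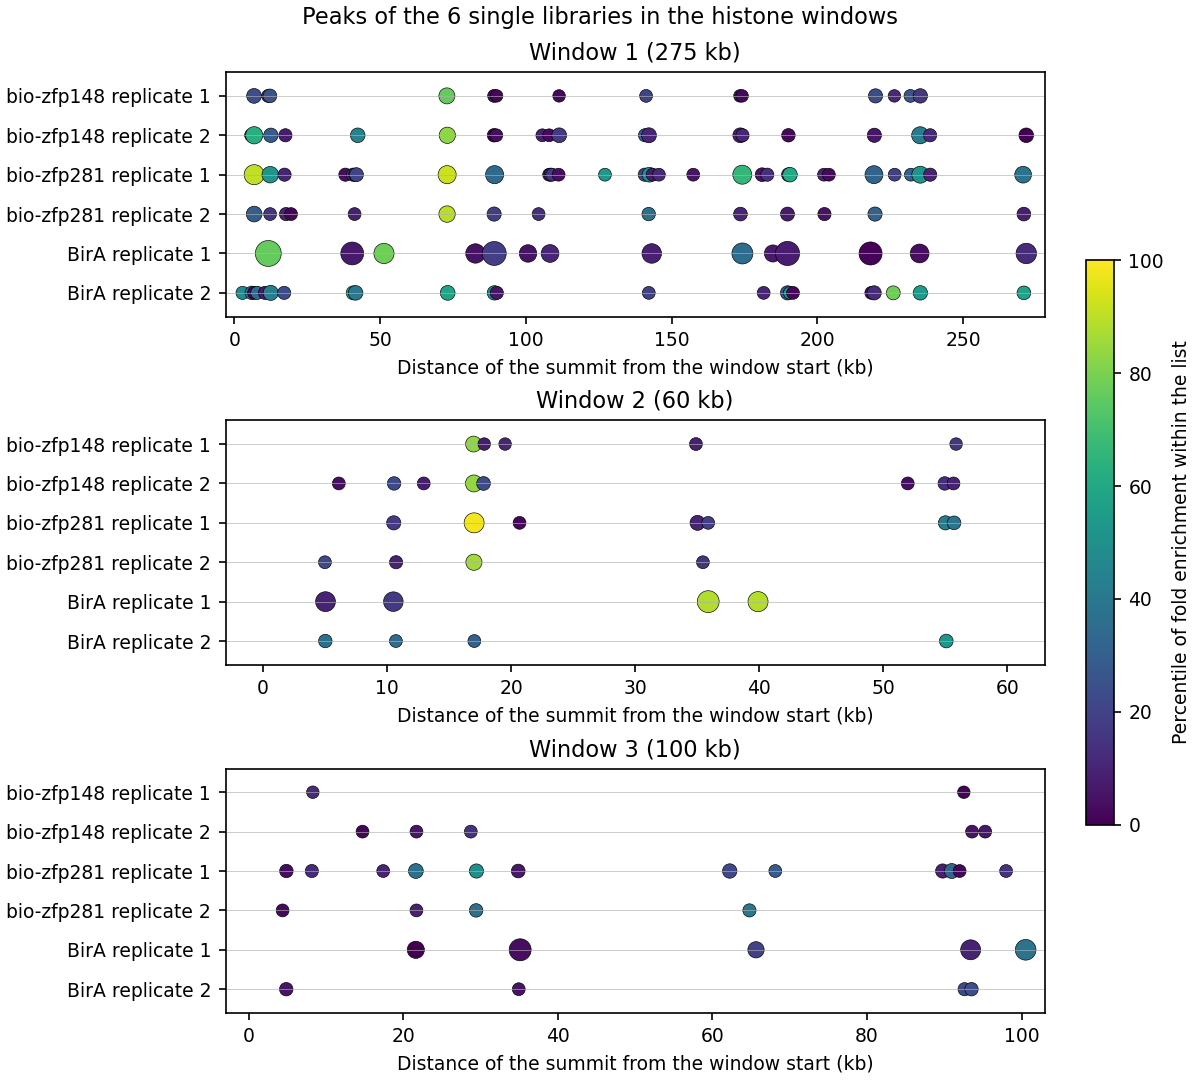
Peaks of the 6 single libraries in the 3 histone windows; each point is a peak summit at its distance in kb from the window start, its size grows with the tag count and its colour gives the percentile of its fold enrichment within its own list. In window 1 a strong peak recurs near 73.0 kb, and in window 2 one recurs near 17.0 kb, in all 4 tagged libraries; at both, BirA replicate 2 has a weaker one.

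By fold enrichment most cluster peaks were weak ones for their library. Fold enrichment is the authors' ratio of tags in a peak to the local background; it is scaled within a list and was ranked only within it. The median member ranked at percentile 12.4 of its list in bio-zfp148 replicate 1 and at 9.33 in replicate 2, against 24.8 and 17.9 for flank peaks. In bio-zfp281 it ranked at percentiles 16.9 and 14.2 in replicates 1 and 2, against 23.6 and 20.1 in the flank. BirA members ranked at percentile 9.70 in replicate 1 and 32.3 in replicate 2, against 28.7 and 37.2 in the flank. The windows were below the flank in all 6 libraries by fold. By the p scale, the authors' −log10 p times 10, the median member ranked at percentiles 9.45, 8.12, 19.2 and 10.3 in the tagged libraries in the same order, against 26.6, 21.2, 37.1 and 30.5 in the flank. In BirA replicate 1 the median member ranked at 83.0 on the p scale and 98.5 by tags, against 66.2 and 88.9 in the flank, and in replicate 2 at 36.2 and 62.5, against 38.9 and 54.8.

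In fold terms the median member stood at 2.02 and 2.22 in bio-zfp148 replicates 1 and 2, against 3.0 and 3.06 in the flank and 5.05 and 6.39 over the whole lists. In bio-zfp281 it stood at 1.76 and 1.38, against 2.12 and 1.66 in the flank and 3.77 and 3.11 over the lists. In these 4 libraries 2 of 21, 3 of 33, 8 of 51 and 2 of 22 members exceeded the median fold of their own list. In the flank 12 of 68, 15 of 75, 21 of 125 and 9 of 46 peaks did. For bio-zfp281 replicate 1 the shares were close, at 15.7% in the windows and 16.8% in the flank. The numbers behind these values are small: the median member held 5 or 6 tags in each tagged library. Members with a fold below 1, which the densities also count, were 5 of 21, 1 of 33, 6 of 51 and 4 of 22. In the flank they were 3 of 68, 1 of 75, 13 of 125 and 5 of 46. In BirA replicate 1 the median member held 69 tags and had a fold of 6.14, against 35 tags and 7.36 in the flank, and in BirA replicate 2 it held 6.5 tags and had a fold of 2.84, against 6 tags and 3.10.

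**Figure D3:**
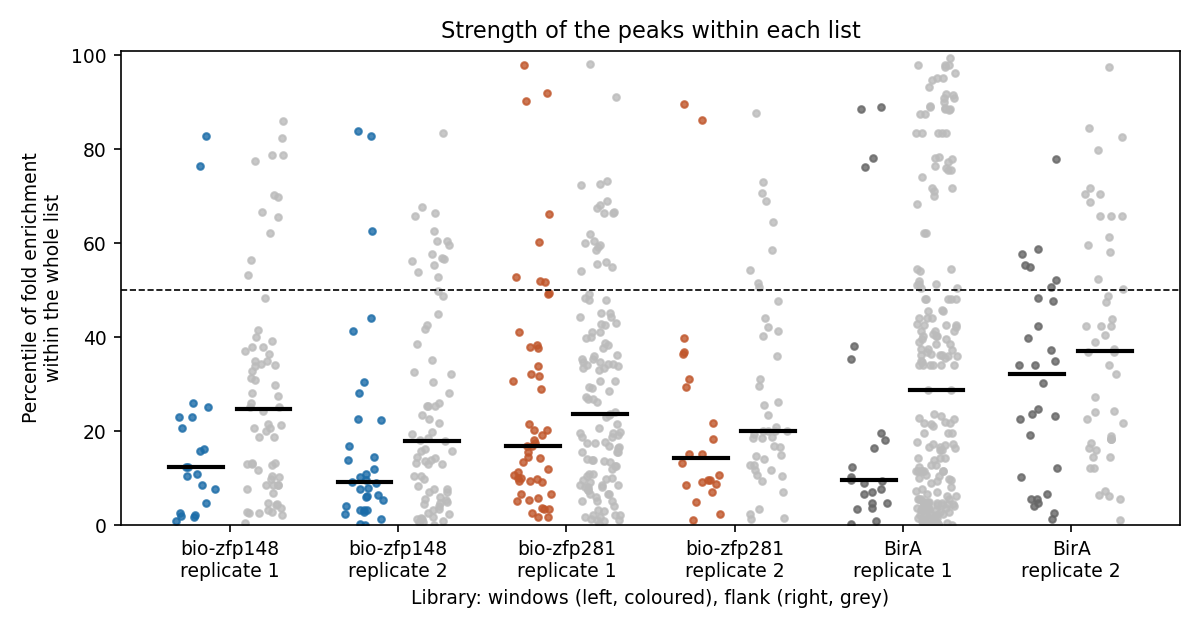
Percentile of each peak's fold enrichment within its own list, for peaks in the histone windows (coloured, left of each pair) and in the flank (grey, right), with the median as a black bar and a dashed line at 50. Window peaks have medians of 9.33 to 16.9 in the tagged libraries, below the flank medians of 17.9 to 24.8, and a few window peaks stand above 75.

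Against this background a pair of places stood out by strength. Places are stretches where member peaks of the 6 single libraries overlap, and the windows held 68 of them. The strongest member of bio-zfp148 replicate 1, bio-zfp148 replicate 2 and bio-zfp281 replicate 1, and of both pooled tagged lists, overlapped the place chr6:27106452-27108120 in window 2. There bio-zfp148 replicate 1 had a fold enrichment of 11.51 and replicate 2 of 14.74, bio-zfp281 replicate 1 of 24.23 and replicate 2 of 7.26, against 2.74 on 5 tags in BirA replicate 2 and no call in BirA replicate 1. Within their own lists these peaks ranked at percentiles 82.9, 84.0, 98.1 and 86.2 in the tagged libraries in that order, against 30.3 in BirA replicate 2.

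Depth was then taken into account by scaling to CPM, here the tags over the bases a library called per 1000000 tags left in it after duplicate removal. On this scale the place held 29.6 (95% Poisson interval 19.0 to 44.1) and 24.7 (17.4 to 34.1) CPM in bio-zfp148 replicates 1 and 2. It held 43.3 (33.6 to 54.9) and 24.3 (15.2 to 36.7) in bio-zfp281 replicates 1 and 2, against 4.63 (1.503 to 10.8) in BirA replicate 2. The called length was 398 to 1635 bp in the tagged libraries and 320 bp in BirA replicate 2. The place was named for its strength in the tagged lists, so these values describe it and test nothing. The summits of the strongest peak in each tagged library lay within 44 bp of each other, and the BirA summit was 19 bp from the nearest. In the pooled lists the peak had 84 tags and a fold of 48.78 in bio-zfp148 and 162 tags and 59.61 in bio-zfp281, at percentiles 95.8 and 99.4 of those lists, against 43 tags and 5.47 at percentile 6.66 in the pooled BirA list. In the stretch of 4 Mb it ranked 2 of 89 and 1 of 108 in bio-zfp148 replicates 1 and 2 and 2 of 176 in bio-zfp281 replicate 1.

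The other strong place, chr6:26087518-26088445 in window 1, held the strongest member of bio-zfp281 replicate 2, at a fold of 8.29. Its folds in the other tagged libraries were 9.56 in bio-zfp148 replicate 1, 14.06 in bio-zfp148 replicate 2 and 12.84 in bio-zfp281 replicate 1, against 4.49 in BirA replicate 2 and no call in BirA replicate 1. In CPM it held 25.9 in bio-zfp148 replicate 1, 15.4 in bio-zfp148 replicate 2, 26.1 in bio-zfp281 replicate 1 and 26.5 in bio-zfp281 replicate 2, against 12.03 (6.41 to 20.6) in BirA replicate 2. The interval of BirA replicate 2 overlaps those of all 4 tagged libraries, and the pooled BirA list also had a peak there, with 56 tags and a fold of 6.97 at percentile 28.9. At 13 tags in a library of 1080363, the BirA peak was at percentile 58.9 of its list. In RefSeq's gene order, 1 protein-coding gene that is no histone gene, HFE, a regulator of iron uptake, lies between H1-2 and H4C3. Which gene this place belongs to was not determined here.

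The place chr6:26020611-26022334 ranked differently between libraries of the same protein. Its fold was 2.89 in bio-zfp148 replicate 1 and 8.33 in replicate 2, and 11.64 in bio-zfp281 replicate 1 and 2.09 in replicate 2. BirA replicate 2 had 2 peaks there, the one with more tags at 2.93. The percentiles in the tagged libraries were 23.1, 62.7, 90.3 and 29.5 in that order, against 34.2 in BirA replicate 2. CPM values were 16.0, 24.7, 43.3 and 21.0 in those 4 tagged libraries, against 11.1 (5.74 to 19.4) in BirA replicate 2. The summits of the strongest peak in each tagged library fell within 48 bp, and the nearer of the 2 BirA summits was 5 bp from a tagged one.

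At 3 places all 6 libraries had a peak, and there the CPM values of tagged and BirA libraries overlapped, over called lengths that differed. At chr6:26024559-26027899, CPM values were 16.0 in bio-zfp148 replicate 1 and 7.35 in replicate 2, and 15.9 in bio-zfp281 replicate 1 and 5.51 in replicate 2, against 14.4 and 19.4 in BirA replicates 1 and 2. At chr6:26103122-26105403 they were 11.1, 8.01, 26.1 and 11.03 in the tagged libraries in that order, against 10.0 and 15.7 in BirA. At chr6:26232705-26235669 they were 12.3, 6.68, 24.8 and 11.03, against 8.46 and 13.9. BirA replicate 2 was highest at the first of the 3, and bio-zfp281 replicate 1 at the other 2. BirA replicate 1 called 3341, 2272 and 2965 bp at the 3 places, and BirA replicate 2 called 1342, 1332 and 1347 bp. The tagged libraries called 534 to 1233, 755 to 1494 and 726 to 2056 bp. The values of BirA replicate 1 thus sum tags over longer stretches, and CPM is not scaled to length.

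The remaining 2 of the 8 places, chr6:26156956-26158633 and chr6:27100307-27101033, were called in both BirA replicates and in 3 tagged libraries, all but bio-zfp148 replicate 1. At the first, CPM ranged from 7.72 to 11.5 over the tagged libraries, against 3.76 and 4.63 in BirA replicates 1 and 2. At the second they ranged from 4.67 to 6.62, against 3.82 and 4.63. The strongest member of BirA replicate 1 was elsewhere, at chr6:27129409-27130446 (69 tags, fold 11.64), and that of BirA replicate 2 at chr6:26240602-26241458 (9 tags, fold 6.69). They ranked 18 of 226 and 5 of 80 in the stretch, lower than the leading tagged peaks did.

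Counted over all places, those in the histone windows were called in several libraries more often than those in the flank. Of the 68 places, 17 (25.0%, exact 95% interval 15.3 to 37.0) were called in at least 4 of the 6 libraries, against 35 of 335 flank places (10.4%, 7.39 to 14.2). The 2 intervals do not overlap. Over all chromosomes that share was 6.09% of 103537 places. However, places called only in BirA libraries made up 48.1% of the flank places and 14.7% of those in the windows. A place called in at least 4 libraries must hold a tagged peak. Among places with a tagged peak, such places were 17 of 58 in the windows and 35 of 174 in the flank. No interval was computed for these shares. In the windows 36 places (52.9%) had a peak in 1 library, against 69.9% in the flank and 79.9% overall. The 17 recurrent places were 12 of the 37 places of window 1, 4 of the 11 of window 2 and 1 of the 20 of window 3.

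**Figure D4:**
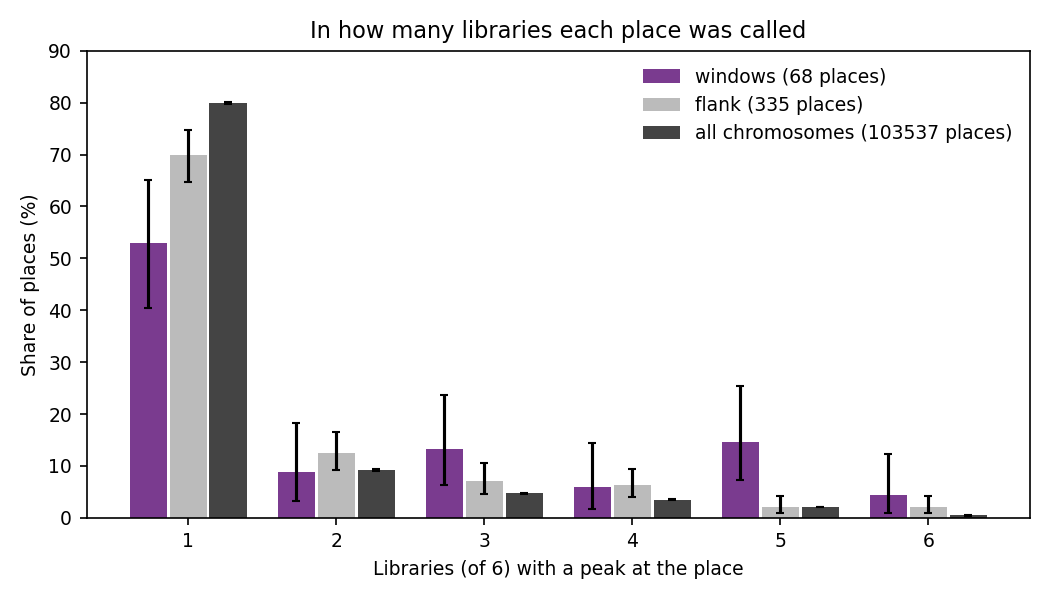
Share of places, in percent, by the number of libraries (of 6) with a peak there, for the histone windows (68 places), the flank (335) and all chromosomes (103537), with exact 95% binomial intervals as bars. Places called in 1 library make up 52.9% of those in the windows, 69.9% in the flank and 79.9% over all chromosomes.

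The recurrence included the cells without a tagged protein. Of the 68 places, 12 (17.6%, 9.47 to 28.8) had a peak in both BirA replicates, against 19 of 335 in the flank (5.67%, 3.45 to 8.72) and 1.83% over all chromosomes. Of the 68, 34 were called only in tagged libraries (50.0%, against 30.7% in the flank and 30.9% over all chromosomes). Another 24 were called in tagged and BirA libraries (35.3%, against 21.2% and 10.2%). The last 10 were called only in BirA libraries (14.7%, against 48.1% and 58.9%). Among the 58 places of tagged libraries, 24 (41.4%) were met in BirA cells, against 40.8% in the flank and 24.8% over all chromosomes. By BirA replicate 1 alone the 3 shares were 27.6%, 31.6% and 17.0%, and by BirA replicate 2 alone they were 34.5%, 20.1% and 11.3%. At the 24 shared places the nearest BirA summit lay a median of 33 bp from a tagged summit, and 22 of them lay within 200 bp.

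The places that all 4 tagged libraries shared were, without exception in the windows, also called in at least 1 BirA replicate. There were 7 such places (10.3% of 68), against 5.67% of flank places and 4.31% of all places. Among places with a tagged peak they were 7 of 58, against 19 of 174 in the flank and 4463 of 42521 over all chromosomes. Of the 7, 0 lacked a BirA peak, which allows a share of up to 41.0%, against 7 of 19 in the flank (36.8%, 16.3 to 61.6) and 47.2% over all chromosomes (2.03% of all places). The BirA replicates did not call the same places. Of the 7, chr6:26188085-26189835 was called in BirA replicate 1 only, whose list held no peak at or under a 5% false discovery rate. In BirA replicate 2 only were chr6:26020611-26022334, chr6:26087518-26088445 and chr6:27106452-27108120. The others were called in both. With 7 places, the windows and the flank have overlapping intervals.

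Replicates were compared next. Of the 23 cluster peaks of BirA replicate 1, 11 were found in BirA replicate 2 (47.8%, 26.8 to 69.4), against 9.36% (5.73 to 14.2) of its flank peaks and 2.79% of its whole list. In the other direction 17 of 30 peaks of BirA replicate 2 were found in replicate 1 (56.7%, 37.4 to 74.5), against 38.0% in the flank and 24.1% over the list. The intervals of windows and flank do not overlap for BirA replicate 1 and overlap for replicate 2. BirA replicate 1 cluster peaks were wider than its flank peaks, with medians of 1343 and 812 bp.

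In the tagged groups the agreement in the windows could not be told from that in the flank. For bio-zfp148, 14 of 21 cluster peaks of replicate 1 were found in replicate 2 (66.7%, against 47.1% in the flank and 52.9% over the list). Of the 33 peaks of bio-zfp148 replicate 2, 14 were found in replicate 1 (42.4%, against 44.0% and 46.5%). For bio-zfp281 the shares were 81.8% of the 22 peaks of replicate 2, against 73.9% in the flank and 73.0% over the list, and 35.3% of the 51 peaks of replicate 1, against 26.4% and 25.0%. All 4 intervals for the windows overlap those for the flank.

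A large share of the pooled cluster peaks of each protein met a BirA peak. For bio-zfp148, 27 of 43 did (62.8%, 46.7 to 77.0), against 44.7% (36.7 to 53.0) in the flank and 23.0% over the whole list. For bio-zfp281, 33 of 73 did (45.2%, 33.5 to 57.3), against 42.7% (36.5 to 49.0) and 22.4%. Peaks of BirA replicate 2 alone met 44.2% of the bio-zfp148 peaks (29.1 to 60.1), against 17.1% in the flank (11.5 to 24.1) and 9.07% over the list. They met 27.4% of the bio-zfp281 peaks (17.6 to 39.1), against 14.2% (10.2 to 19.2) and 7.55%. Peaks of BirA replicate 1 met 34.9% and 28.8% of the window peaks of bio-zfp148 and bio-zfp281, against 28.3% and 31.2% in the flank and 14.3% and 14.7% over the lists. Among the single tagged libraries, BirA replicate 1 met 42.9% and 45.5% of the window peaks of bio-zfp148 replicates 1 and 2, 37.3% of those of bio-zfp281 replicate 1 and 54.5% of those of bio-zfp281 replicate 2, against 29.4%, 32.0%, 42.4% and 47.8% in the flank and 15.5%, 18.6%, 20.4% and 21.0% over the 4 lists. The windows were above the flank in 3 of the 4, bio-zfp281 replicate 1 being the exception. BirA replicate 2 met 47.6%, 48.5%, 39.2% and 59.1% in that order, against 23.5%, 29.3%, 23.2% and 34.8% in the flank (17.0%, 16.9%, 14.6% and 24.8% over the lists).

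Read from the BirA side, 25 of 30 cluster peaks of BirA replicate 2 met a peak of a tagged library (83.3%, against 70.0% in the flank and 62.9% over the list). For BirA replicate 1, 16 of 23 did (69.6%, 47.1 to 86.8, against 28.1%, 22.0 to 34.8, in the flank and 11.2% over the list). Peaks of every tagged library met 6 of the 30 (20%, against 14.0% in the flank and 21.8% over the list) and 4 of the 23 (17.4%, against 5.42% and 1.41%). The pooled peaks of both proteins met each other at 28 of 43 bio-zfp148 peaks (65.1%, against 55.3% in the flank and 49.4% over the list) and 26 of 73 bio-zfp281 peaks (35.6%, against 34.0% and 32.0%).

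Sites were defined as pooled peaks found in both replicates of the protein and met by no BirA peak. Of the pooled cluster peaks, 13 of 43 in bio-zfp148 were found in both replicates (30.2%, against 21.1% in the flank and 19.3% over the list), and 10 of the 13 met a BirA peak, which is 23.3% of the 43 and compares with 13.8% in the flank and 8.22% over the list. In bio-zfp281, 18 of 73 were found in both (24.7%, against 13.04% and 10.3%), and 16 of the 18 met one, which is 21.9% of the 73 and compares with 9.49% in the flank and 5.28% over the list. That left 3 sites of bio-zfp148 (6.98% of its 43 peaks, 1.46 to 19.1, against 7.24% in the flank and 11.1% over the list) and 2 of bio-zfp281 (2.74% of 73, 0.334 to 9.55, against 3.56% and 5.07%). The shares in the windows are within counting error of those in the flank. With BirA replicate 1 left out there were 5 sites of each protein in the windows, and with BirA replicate 2 left out 7 of each.

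The 5 sites were named after their values were seen, since the count was small. The bio-zfp148 sites were chr6:26125889-26126791 (33 tags, fold 7.74, percentile 30.4 of its list), chr6:26155557-26156466 (23 tags, fold 11.52, percentile 51.3) and chr6:27107651-27108120 (21 tags, fold 7.08, percentile 25.3). The last lies at the edge of the strong place in window 2, whose leading peak met BirA replicate 2 and so was no site. The bio-zfp281 sites were chr6:26216767-26217631 (21 tags, fold 2.47, percentile 9.29) and chr6:27799286-27799924 (24 tags, fold 9.34, percentile 70.4). In single libraries the sites rested on 4 to 13 tags. No stretch was a site of both proteins, although 4 of the 5 met a pooled peak of the other protein, all but chr6:26216767-26217631.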

How the data were processed

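Streptavidin ChIP-seq was deposited for 6 libraries (bio-zfp148, bio-zfp281 and BirA alone, 2 each) with 3 inputs, which entered only through the authors' calls. Per the submitters' processing notes, Bowtie 1.0.0 placed the reads on hg19 and MACS 1.4 called the peaks. Per the file headers the caller was MACS 1.4.0rc2 with a p cutoff of 1e-05, and duplicates were limited. The 9 deposited lists (6 libraries, 3 pooled) give for each peak the tag count without normalisation, a score of 10 times the −log10 p (the p scale), the fold enrichment as a ratio to local background, the false discovery rate as a percentage, and 1-based positions, all made by the authors. Lists hold no value where nothing was called, so no count model was fitted.

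Members, flank and sites were counted per list at an overlap of at least 1 bp. Density ratios have exact conditional binomial 95% intervals, shares Clopper-Pearson and tags Poisson ones, all for counting error only. PCR duplicates carry no molecular identifiers, so even filtered tags may not be independent molecules. Groups were compared over libraries by an exact permutation test. The density ratio was tested on simulated peaks with planted ratios that included 1 and 3. Percentiles rank fold within a list.

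Named were the 8 places called in most libraries (ties by the worst percentile), the strongest member of each list, and the 3 places of both BirA replicates with the best worst percentile, which fell among the 8. The members and lists were chosen with earlier results of these data known. Regulators of histone genes (NPAT, SLBP and others) were not counted, because no hg19 annotation was used here. Promoters and gene order came from RefSeq tables on GRCh38.p14, and no coordinate was converted. Alternatives changed the window rule, thresholds, unit, flank, BirA list, overlap, pairing and libraries. Python 3.11.15, numpy 2.4.6, pandas 2.3.3, scipy 1.17.1 and matplotlib 3.10.9 were used.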

Additional observations from a re-analysis of the deposited data

How the results depend on the processing

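Of the 26 alternative density ratios of the BirA lists, 19 were above 1 (0.315 to 22.9). All 61 alternative density ratios outside BirA replicate 1 and the pooled BirA list were above 1 (1.05 to 22.9). Of the 54 among these 61 with an interval, however, 10 reached below 1. These were 5 with window 3 alone, 4 at a fold of at least 10, and bio-zfp148 pooled at 100 on the p scale, with 1.66 (0.923 to 2.82). With the rest of chromosome 6 as the flank the ratios were 8.09, 11.1 and 6.08 for bio-zfp148 (replicates 1 and 2, pooled), 11.8, 13.6 and 6.85 for bio-zfp281, and 1.80, 22.9 and 2.46 for BirA. The cause was not tested. Window 2 alone gave 4.37, 6.34 and 3.52 in bio-zfp148 and 2.39 in pooled BirA, and window 3 alone gave 1.05 in bio-zfp148 replicate 1 and 2.85 in BirA replicate 2. A fold of at least 10 left few peaks and gave 16.4 (bio-zfp148 replicate 2), 1.14 (bio-zfp148 pooled), 12.3 (bio-zfp281 replicate 1) and 0.315 (BirA pooled), and no value for bio-zfp281 replicate 2 or BirA replicate 2. On the p scale, a minimum of 100 gave 1.61 in BirA replicate 1 and 2.15 in pooled BirA, where bases covered gave 1.83.

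The mean log2 ratio ran from 1.34 to 1.85 for bio-zfp148, 1.74 to 1.97 for bio-zfp281 and -0.11 to 2.30 for BirA with each replicate left out. Tagged minus BirA ran from -0.57 to 1.83, bio-zfp148 minus BirA from -0.70 to 1.70 and bio-zfp281 minus BirA from -0.44 to 1.96. All 3 lowest values are those without BirA replicate 1 and turn the sign, and all 3 highest are those without BirA replicate 2. With the replicate block the tagged minus BirA difference stayed at 0.63 (1.65 within replicate number 1, -0.39 within number 2; exact permutation p = 0.667). The labels give a shared number only, and deviations over 23 chromosomes correlated at 0.02, 0.32 and 0.18 between groups. The block changed no other call and gave 4 bio-zfp148 and 3 bio-zfp281 sites.

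The 3 bio-zfp148 and 2 bio-zfp281 window sites became 13 and 18 with no BirA peaks removed, and 16 and 40 without replicate support. They became 8 and 10 when a pooled peak was dropped only if it met peaks of both BirA replicates. They numbered 1 and 0 at a fold of at least 10, and 5 of bio-zfp148 at 100 on the p scale. With either BirA replicate left out they ran from 5 to 7 for each protein. With a tagged replicate left out, peaks of the remaining library were counted in place of pooled peaks, with no other replicate to meet. That gave 9 and 6 for bio-zfp148 without replicates 1 and 2, and 6 and 22 for bio-zfp281. Pooled peaks met 34.9% and 28.8% by BirA replicate 1 alone, and 44.2% and 27.4% by BirA replicate 2 alone, while tagged places met 27.6% by BirA replicate 1 alone. With summits within 200 bp the replicates shared 45.5% in bio-zfp281 and 16.7% in BirA, and at 100 on the p scale BirA shared 32.0%. The median member of a tagged library held 5 or 6 tags.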
